A study of Mus musculus with 6 samples.

Results

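A set of 55 mitotic spindle and kinetochore genes was examined in mouse leukemia cells with and without Ddit4. The members were given as a list of gene symbols, drawn up with earlier results of these data known and with no threshold on measured values, and all 55 were found among the 55421 genes of the count table. RNA sequencing had been done on bone marrow leukemia cells of C57BL/6 background carrying AE9a, a truncated AML1-ETO fusion protein that was delivered by retrovirus, marked with GFP, into c-Kit+ hematopoietic stem and progenitor cells (HSPCs). In the AE9a-Ddit4+/+ group (3 libraries) the HSPCs came from wild-type donors, and in the AE9a-Ddit4-/- group (3 libraries) from donors lacking Ddit4, a stress-induced inhibitor of mTOR signaling. The study's methods give an age of 6 to 8 weeks for the donors of c-Kit+ cells. The sorted GFP+ cells were passed through irradiated recipients, so that both groups share the virus, the fusion protein and the transplantation. The knockout was carried by the transplanted cells, and the recipients were C57BL/6 mice. No group without AE9a was analysed here. The cells came from bone marrow of several transplanted mice per group, but whether the 3 libraries are leukemias that arose separately is not stated. Fewer primary recipients of AE9a-Ddit4-/- cells developed leukemia in the study than the 3 libraries of that group. If the libraries come from that transplant series, some of them share a leukemia of origin. The p-values below therefore measure the spread between libraries, which may be technical or between mice carrying the same leukemia.

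Mitosis is driven by cyclin-dependent kinase 1 (Cdk1) bound to cyclins A and B. Microtubules grow from the spindle poles and attach to the kinetochore, a protein plate built on the centromere of each chromosome. The spindle assembly checkpoint delays anaphase until the attachments are made, and then the anaphase-promoting complex marks securin and cyclin B for destruction. Most of these genes are transcribed late in the cell cycle, through the CHR element (cell cycle genes homology region, bound by the MuvB complex with Mybl2 and Foxm1) and CCAAT boxes (bound by NF-Y) near their start sites. Their mRNA level in a bulk sample is therefore widely read as a measure of cycling cells.

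To show what these promoters look like, RefSeq windows of 300 bases (250 before the gene start and 50 from it on, GRCm38.p6) were searched on both strands for the CHR core TTTGAA and for CCAAT. Of the 55 members, 46 had a window, and 3 of them had 2. Aurkb, Ccna2, Cdc25c, Foxm1, Incenp, Kif20a, Smc4, Spc24 and Tpx2 were not in the table. Below are the 6 members with the lowest adjusted p whose window held both motifs. Each is printed from 250 bases before the start to base 30 after it, 5′ to 3′ along the gene, with each match in capitals (ATTGG and TTCAAA being the same motifs on the other strand). In Cdca8 the CHR core and a CCAAT box on the other strand share 1 base.
Mki67 (chr7:135716350-135716629, minus strand): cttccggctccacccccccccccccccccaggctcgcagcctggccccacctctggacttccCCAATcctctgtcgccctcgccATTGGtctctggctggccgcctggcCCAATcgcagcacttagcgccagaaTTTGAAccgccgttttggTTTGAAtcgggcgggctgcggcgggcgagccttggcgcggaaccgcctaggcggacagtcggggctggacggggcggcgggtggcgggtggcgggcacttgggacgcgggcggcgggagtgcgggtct
Cenpa (chr5:30666636-30666915, plus strand): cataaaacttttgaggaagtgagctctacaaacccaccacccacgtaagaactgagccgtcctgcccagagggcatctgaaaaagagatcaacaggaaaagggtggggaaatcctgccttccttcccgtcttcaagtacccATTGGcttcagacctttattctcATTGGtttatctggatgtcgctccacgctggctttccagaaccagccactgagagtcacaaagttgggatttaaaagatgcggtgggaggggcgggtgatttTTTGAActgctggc
Spc25 (chr2:69206184-69206463, minus strand): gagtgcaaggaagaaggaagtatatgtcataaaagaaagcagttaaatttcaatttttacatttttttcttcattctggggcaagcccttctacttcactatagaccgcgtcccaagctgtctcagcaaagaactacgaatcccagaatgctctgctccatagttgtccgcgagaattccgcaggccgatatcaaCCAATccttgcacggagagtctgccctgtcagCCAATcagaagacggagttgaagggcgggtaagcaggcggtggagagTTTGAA
Kif23 (chr9:61946770-61947049, minus strand): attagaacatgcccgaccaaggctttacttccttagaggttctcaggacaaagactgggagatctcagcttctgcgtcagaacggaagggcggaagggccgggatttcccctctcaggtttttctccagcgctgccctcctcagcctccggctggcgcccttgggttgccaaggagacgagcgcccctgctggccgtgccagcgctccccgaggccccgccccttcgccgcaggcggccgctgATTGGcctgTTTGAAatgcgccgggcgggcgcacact
Ccnb2 (chr9:70421525-70421804, minus strand): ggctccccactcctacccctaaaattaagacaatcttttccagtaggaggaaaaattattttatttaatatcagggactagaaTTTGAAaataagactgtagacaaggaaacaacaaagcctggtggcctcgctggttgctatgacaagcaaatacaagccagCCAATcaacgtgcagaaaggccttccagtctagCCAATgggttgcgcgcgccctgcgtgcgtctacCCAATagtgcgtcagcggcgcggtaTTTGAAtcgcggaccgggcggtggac
Cdca8 (chr4:124936888-124937167, minus strand): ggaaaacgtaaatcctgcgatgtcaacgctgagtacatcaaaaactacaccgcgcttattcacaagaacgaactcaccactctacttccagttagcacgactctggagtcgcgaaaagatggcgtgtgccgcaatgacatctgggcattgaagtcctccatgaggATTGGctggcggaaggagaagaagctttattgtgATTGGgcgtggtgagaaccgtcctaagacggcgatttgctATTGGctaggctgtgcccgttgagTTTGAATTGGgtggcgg

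The CHR core was found in 36 of the 49 windows of members (73.5%) and in 17.9% of all 32851 windows of the table. CCAAT was likewise found in 36 of the 49 windows (73.5%), against 37.4% of all windows. Both motifs stood in 31 windows (63.3%) against 6.95% of all windows. In 29 of the 33 members with a CHR core, a core began within 50 bases of the start, and 20 of the 33 members with CCAAT had 2 or more copies. These are matches of letters, and no binding was measured. The share with both motifs was 64.3% among the 28 windows of members that were lower in AE9a-Ddit4-/- and 61.9% among the 21 windows of the other members. In the 137 windows of the other mitotic and replication genes listed further on, the CHR core stood in 29.9%, CCAAT in 61.3% and both in 20.4%.

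**Figure D1:**
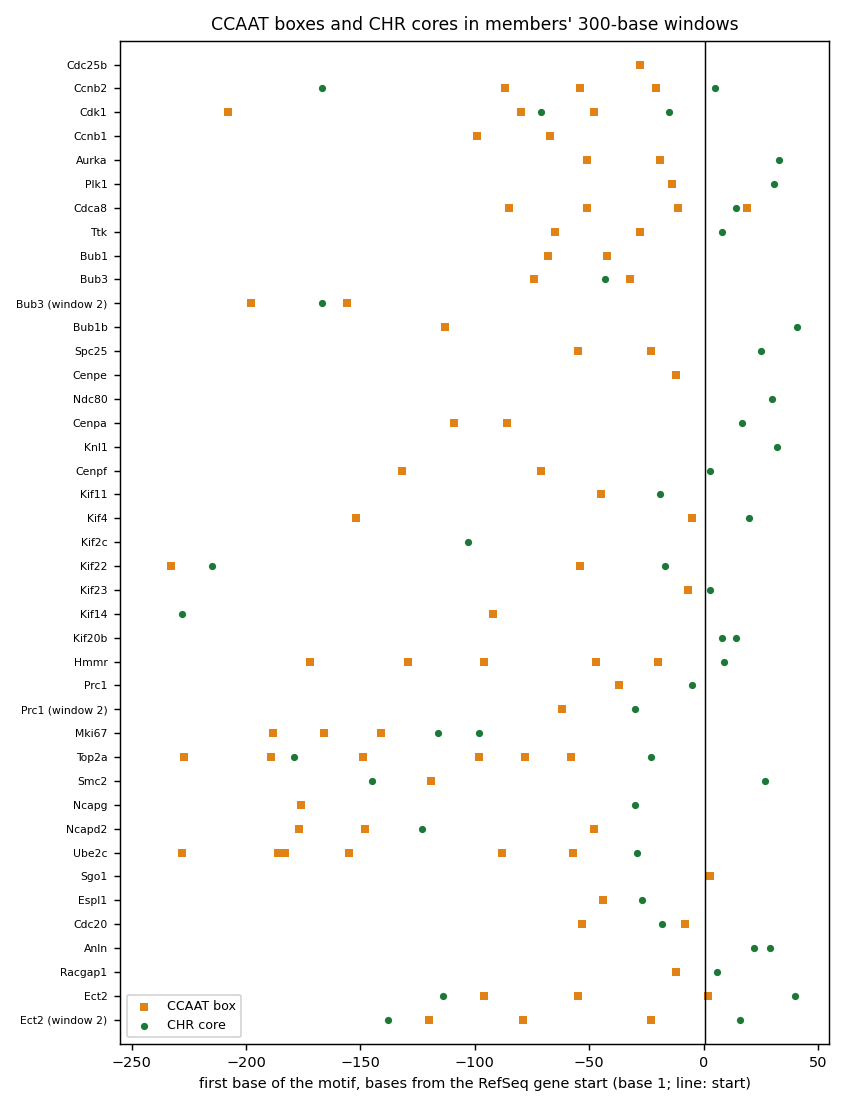
Position of the CHR core (green circles) and the CCAAT box (orange squares) in the windows of members, by the first base of each match; the x axis gives bases from the RefSeq gene start and each row is a window, ordered by role. The 38 members with a match are drawn, and 29 of the 33 members with a CHR core have one within 50 bases of the start. Most CCAAT boxes lie before the start, but so do 250 of the 300 bases of each window.

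Total counts ran from 62141558 to 72717681 per library, and each member had at least 231 counts in every library. Counts of 4, 8 and 12 were 1.40 to 1.62 times as frequent as counts of 2, 6 and 10 in each library, so a count may not be 1 fragment and the fragments behind a level are not known. Levels are given as CPM, counts per 1000000 counts of the library after TMM scaling, with scaling factors of 0.921 to 1.05. Ddit4, the targeted gene, was at 228, 161 and 342 CPM in AE9a-Ddit4+/+ libraries 1 to 3 and at 84.9, 77.7 and 85.9 CPM in AE9a-Ddit4-/- libraries 1 to 3. Its RNA was lower in AE9a-Ddit4-/- by 1.56 on the log2 scale (standard error, SE, 0.28, adjusted p by edgeR = 0.00635) but not absent, and the part of the gene that the allele lacks was not known here. At the protein level, the study's western blot showed no DDIT4 in AE9a-Ddit4-/- leukemia cells.

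Of the 55 members, 33 were lower at an edgeR adjusted p below 0.05, none was higher, and 22 did not pass. Among all 18375 genes tested, 10.7% were lower and 19.4% higher by the same threshold. At an unadjusted p below 0.05, edgeR gave 46 lower and 0 higher members, against 17.4% lower and 25.0% higher of all genes tested. The DESeq2 Wald test gave 40 lower and 0 higher members at its own adjusted p, against 15.0% and 23.7% of all genes. Among the 8218 genes with an average above 4 log2 CPM, a range that holds most members, 17.0% were lower. The median log2 fold change of the members was -1.05, against 0.037 for all genes tested and -0.17 for the genes above 4 log2 CPM. Of the 33 called members, 30 were at least 2-fold lower. The 3 AE9a-Ddit4-/- libraries lay below all 3 AE9a-Ddit4+/+ libraries in 50 of the 55 members, whereas the groups were separated in this direction in 22.2% and in the other in 27.9% of all genes tested. Leaving out AE9a-Ddit4+/+ library 1 cut the lower members to 17, leaving out its library 3 to 20, and leaving out AE9a-Ddit4-/- library 2 to 21. Lower calls over all genes tested fell too, from 1975 in the main fit to 1168 and 1089 without AE9a-Ddit4+/+ libraries 1 and 3. In bulk RNA, fewer cycling cells and less of each transcript per cell cannot be told apart. The study measured the resting G0 phase by flow cytometry, with staining for DNA and for Ki67, the protein of Mki67. It found a significantly lower share of G0 cells in AE9a-Ddit4-/- than in AE9a-Ddit4+/+ leukemia cells. Those cells came from the bone marrow next to the bone surface. A lower G0 share by protein staining and lower Mki67 RNA (log2 fold change -1.98 here) point in opposite directions. How the G0 share relates to the RNA levels here was not tested.

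**Figure D2:**
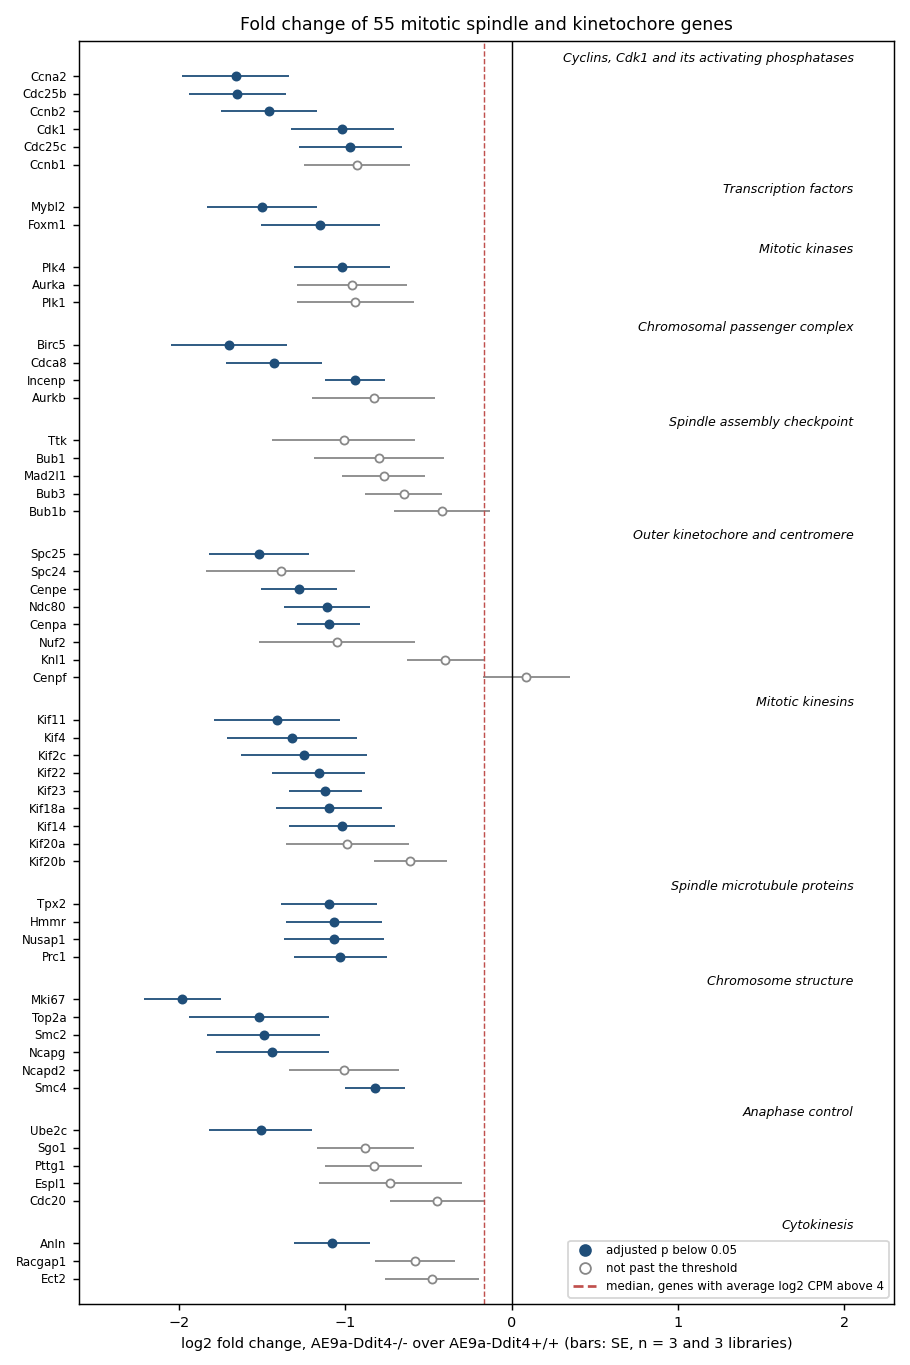
Log2 fold change (x axis, AE9a-Ddit4-/- over AE9a-Ddit4+/+, bars SE, 3 libraries a group) of the 55 members grouped by role. Filled points passed an adjusted p of 0.05, the dashed line is the median of genes above 4 log2 CPM, and all members but Cenpf lie left of 0.

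The cyclins, Cdk1 and the phosphatases that activate it were lower in 5 of 6 cases, with a median log2 fold change of -1.24. Cdc25b, the phosphatase that removes inhibitory phosphates from Cdk1, had the lowest adjusted p of the group. It was at 86.2, 99.1 and 90.2 CPM in AE9a-Ddit4+/+ and at 31.0, 18.3 and 38.4 CPM in AE9a-Ddit4-/-. The difference was -1.65 on the log2 scale (standard error 0.29, adjusted p by edgeR = 0.00542), and the library with the highest AE9a-Ddit4-/- level was still well below the lowest of the other group. Ccnb2, a B-type cyclin, had the highest level per kilobase of exon among them, with a mean of 98.3 CPM per kb in AE9a-Ddit4+/+ and 35.8 in AE9a-Ddit4-/-. Its levels were 147, 156 and 148 CPM against 32.5, 62.1 and 69.8 CPM. That is a log2 fold change of -1.46 (standard error 0.29, adjusted p by edgeR = 0.00906). The wild-type libraries were nearly equal, and the spread was almost wholly on the knockout side. Cdk1 itself was at 112, 126 and 78.5 CPM against 31.9, 65.9 and 57.8 CPM, a log2 fold change of -1.02 (standard error 0.31, adjusted p by edgeR = 0.0443). Ccnb1, the main mitotic B-type cyclin, was at 101, 94.5 and 112 CPM against 29.6, 69.7 and 62.7 CPM. The groups did not overlap, but the log2 fold change of -0.93 (SE 0.32) missed the threshold with an edgeR adjusted p of 0.0629, whereas DESeq2 gave 0.0411. Ccna2, the S-phase and early mitotic cyclin, fell to a mean of 31.7% of the AE9a-Ddit4+/+ mean, and Cdc25c, a relative of Cdc25b, to 50.9%. At an edgeR adjusted p of 0.0495, Cdc25c was the called member closest to the threshold.

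Both transcription factors of the set were lower. Mybl2, which joins the MuvB complex on CHR promoters, was at 185, 151 and 177 CPM in AE9a-Ddit4+/+ and at 32.0, 74.3 and 74.9 CPM in AE9a-Ddit4-/-. Every AE9a-Ddit4-/- value was under the lowest wild-type value by a wide margin, with a log2 fold change of -1.50 (standard error 0.33, adjusted p by edgeR = 0.0135). Foxm1, the forkhead factor that acts on the same promoters in G2, was at 74.2, 84.0 and 66.9 CPM against 18.2, 32.5 and 51.0 CPM. Its log2 fold change of -1.15 (SE 0.36) passed narrowly, with an edgeR adjusted p of 0.0473.

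Of the 3 mitotic kinases only Plk4, the kinase that starts centriole duplication, passed. Plk4 was at 59.8, 48.8 and 56.7 CPM against 17.3, 35.6 and 28.8 CPM, a log2 fold change of -1.02 (standard error 0.29, adjusted p by edgeR = 0.0330). Plk1, which acts from mitotic entry to cytokinesis and had the highest level per kilobase of the kinases, was at 55.1, 67.2 and 64.5 CPM against 18, 31.0 and 48.4 CPM. Aurka, the spindle pole kinase, was at 36.5, 44.7 and 53.7 CPM against 13.1, 27.6 and 28.7 CPM. In both genes the groups were separated, with log2 fold changes of -0.94 (standard error 0.35, adjusted p by edgeR = 0.0793) for Plk1 and -0.96 (standard error 0.33, adjusted p by edgeR = 0.0659) for Aurka. These changes lay within 1 SE of that of Plk4, and DESeq2 called Aurka (adjusted p = 0.0379).

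In the chromosomal passenger complex, which corrects faulty attachments at the inner centromere, 3 of 4 subunits were lower. Incenp, the scaffold, was at 239, 236 and 196 CPM in AE9a-Ddit4+/+ and at 99.0, 124 and 126 CPM in AE9a-Ddit4-/-. Its log2 fold change of -0.94 was modest within the complex but its SE of 0.18 was small, so that the edgeR adjusted p was 0.00822. Birc5 (survivin) fell to 30.8% and Cdca8 (borealin) to 37.1% of the AE9a-Ddit4+/+ mean. Aurkb, the kinase of the complex, was at 81.1, 85.5 and 78.5 CPM against 23.1, 43.3 and 71.4 CPM. Its wild-type libraries were tightly grouped and its knockout libraries covered a wide range that came close to them, and the log2 fold change of -0.83 (SE 0.37) did not pass (adjusted p by edgeR = 0.134).

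None of the 5 spindle assembly checkpoint genes passed the threshold, although 3 of them had an unadjusted p below 0.05 in edgeR and the DESeq2 Wald test called 1, Mad2l1 (adjusted p = 0.0395). Mad2l1, which binds and inhibits Cdc20 while kinetochores remain unattached, had the lowest adjusted p. It was at 90.8, 84.3 and 81.1 CPM against 33.6, 61.6 and 55.6 CPM, with a log2 fold change of -0.77 (standard error 0.25, adjusted p by edgeR = 0.0552). Bub3, which anchors Bub1 and Bub1b at kinetochores, was at 144, 134 and 149 CPM against 64.2, 96.6 and 110 CPM. The groups stood apart, with a log2 fold change of -0.65 (standard error 0.23, adjusted p by edgeR = 0.0661). Bub1, Bub1b and Ttk had log2 fold changes of -0.80, -0.42 and -1.01, and of these only Bub1b overlapped between groups. That the checkpoint genes differ from the other roles was not tested.

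Of the 8 outer kinetochore and centromere genes, 4 were lower, with a median log2 fold change of -1.10. Cenpa, the histone H3 variant that marks centromeres, was at 194, 217 and 198 CPM in AE9a-Ddit4+/+ and at 113, 85.8 and 85.0 CPM in AE9a-Ddit4-/-. It was lower by -1.10 on the log2 scale with an SE of only 0.19 (adjusted p by edgeR = 0.00474). Unlike most members, Cenpa was highest in AE9a-Ddit4-/- library 1. Spc25 and Ndc80, subunits of the Ndc80 complex that grips microtubules, fell to 34.9% and 46.4% of the wild-type mean, and Cenpe, a kinetochore motor, to 41.1%. The other subunits of the Ndc80 complex, Spc24 and Nuf2, had log2 fold changes of -1.39 (standard error 0.45, adjusted p by edgeR = 0.0516) and -1.05 (standard error 0.47, adjusted p by edgeR = 0.130). Thus 2 of its 4 subunits passed, and Spc24 also in DESeq2 (adjusted p = 0.0125), while all 4 had separated groups. Knl1, the checkpoint platform of the outer kinetochore, was at 75.6% of the wild-type mean and did not pass.

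Cenpf, a large protein of the outer kinetochore corona, was the only member without a lower value in AE9a-Ddit4-/-. It was at 103, 87.9 and 63.7 CPM in AE9a-Ddit4+/+ and at 67.9, 112 and 90.5 CPM in AE9a-Ddit4-/-. The groups overlapped, and the log2 fold change of 0.087 (standard error 0.26, adjusted p by edgeR = 0.827) turned to -0.086 when AE9a-Ddit4+/+ library 3 was left out, or to -0.14 when AE9a-Ddit4-/- library 2 was. Cenpf lies on chromosome 1 (GRCm38, 189640606 to 189688086).

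The mitotic kinesins, motors that slide, depolymerize or cross-link microtubules, were lower in 7 of 9 cases, with a median log2 fold change of -1.12. Kif23, a motor of the central spindle, was at 82.0, 106 and 85.5 CPM against 38.3, 35.1 and 52.3 CPM. This was a log2 fold change of -1.12 (standard error 0.22, adjusted p by edgeR = 0.00880) and all 3 AE9a-Ddit4-/- libraries were near each other. Kif11, the motor that pushes spindle poles apart and the kinesin with the highest level per kilobase, was at 262, 170 and 173 CPM against 37.5, 92.5 and 98.3 CPM. AE9a-Ddit4+/+ library 1 was high and AE9a-Ddit4-/- library 1 was low for this gene, and the log2 fold change was -1.41 (standard error 0.38, adjusted p by edgeR = 0.0290). Kif4, Kif2c, Kif22, Kif18a and Kif14 were lower with log2 fold changes between -1.32 and -1.02. Kif20a and Kif20b had -0.99 and -0.61 and did not pass, though their groups did not overlap. The 4 spindle microtubule proteins were all lower, with log2 fold changes from -1.10 to -1.03. Tpx2, the activator of Aurka on the spindle, was at 128, 148 and 135 CPM against 38.5, 70.6 and 82.0 CPM (log2 fold change -1.10, standard error 0.29, adjusted p by edgeR = 0.0245). Prc1, which bundles antiparallel microtubules, Hmmr and Nusap1 had means of 49.1%, 47.8% and 47.6% of wild type.

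The chromosome structure genes had the lowest median of the role groups, -1.46, and 5 of 6 were lower. Mki67, the proliferation marker that coats mitotic chromosomes, had the largest fall of the 55 members. It was at 1306, 838 and 993 CPM in AE9a-Ddit4+/+ and at 225, 257 and 311 CPM in AE9a-Ddit4-/-. All AE9a-Ddit4-/- libraries thus lay far below the lowest wild-type library, with a mean of 25.3% of the wild-type mean and a log2 fold change of -1.98 (standard error 0.23, adjusted p by edgeR = 0.00130). Mki67 also had the highest level per kilobase of exon of all members in AE9a-Ddit4+/+, 104 CPM per kb, and was at 26.3 CPM per kb in AE9a-Ddit4-/-. Top2a, the topoisomerase that untangles sister chromatids, was at 583, 380 and 481 CPM against 78.2, 161 and 263 CPM. Its knockout libraries differed by a factor of 3.36 among themselves, and the log2 fold change was -1.52 (standard error 0.42, adjusted p by edgeR = 0.0302). The condensin subunits Smc2 and Ncapg fell to 35.7% and 36.9% of the wild-type mean, Smc4 to 56.5%, and Ncapd2 was at 49.7% with an adjusted p of 0.0526 in edgeR and 0.0271 in DESeq2.

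Among the genes of anaphase control, 1 of 5 was lower. Ube2c, the ubiquitin-conjugating enzyme of the anaphase-promoting complex, was at 75.5, 71.7 and 71.4 CPM against 16.3, 22.9 and 37.6 CPM, a log2 fold change of -1.51 (standard error 0.31, adjusted p by edgeR = 0.0104). Cdc20, the activator of the same complex and the gene with the highest level per kilobase in this group, was at 102, 127 and 124 CPM against 53.2, 101 and 103 CPM. Its groups overlapped by a small margin, with a log2 fold change of -0.45 (standard error 0.28, adjusted p by edgeR = 0.254). Securin (Pttg1), separase (Espl1) and shugoshin (Sgo1) had log2 fold changes of -0.83, -0.73 and -0.88 and did not pass by edgeR, and the DESeq2 Wald test called Pttg1 (adjusted p = 0.0233) and Sgo1 (adjusted p = 0.0278). Of the 3 cytokinesis genes, Anln passed. Anln, the anillin of the contractile ring, was at 50.3, 69.1 and 47.3 CPM against 23.4, 25.8 and 29.9 CPM (log2 fold change -1.08, standard error 0.23, adjusted p by edgeR = 0.0109). Racgap1, a partner of Kif23 in the central spindle, was at 169, 176 and 142 CPM against 78.8, 107 and 139 CPM. Its groups nearly touched, with a log2 fold change of -0.58 (standard error 0.24, adjusted p by edgeR = 0.104). Ect2, the exchange factor for RhoA, had -0.48 and overlapping groups.

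**Figure D3:**
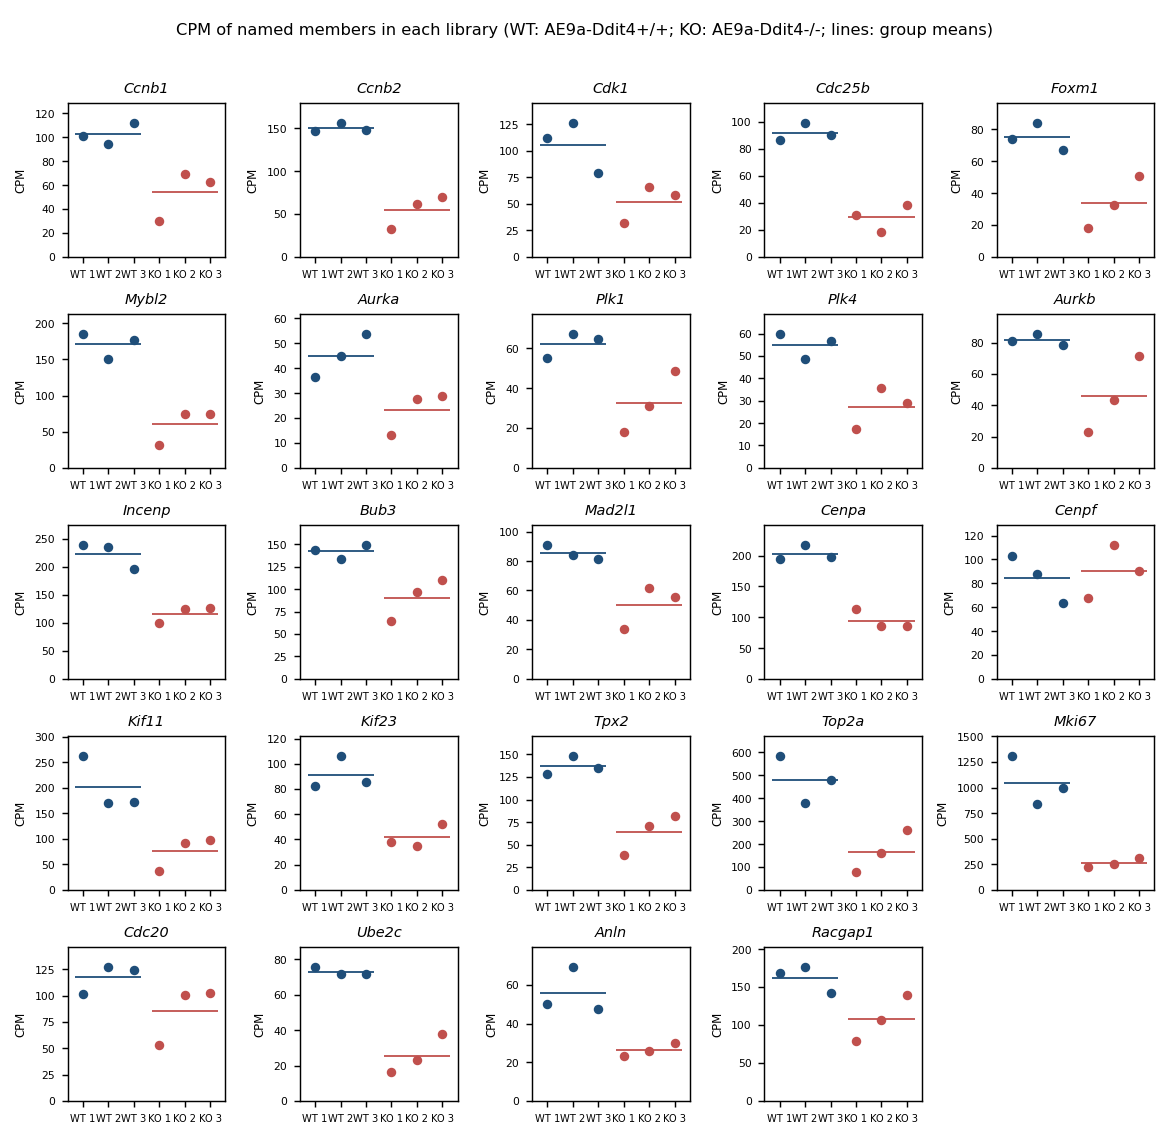
CPM (y axis, linear from 0) of 24 members in each library, blue for AE9a-Ddit4+/+ and red for AE9a-Ddit4-/-, with lines at the group means. Cdc20 and Cenpf are the panels in which the groups overlap, and in most panels library 1 is the lowest of the AE9a-Ddit4-/- group.

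The 3 AE9a-Ddit4-/- libraries differed from each other in these genes more than the AE9a-Ddit4+/+ libraries did. Summed over the members, AE9a-Ddit4+/+ libraries 1 to 3 held 7472, 6536 and 6563 CPM, with a mean of 6857 ± 533 (SD, n = 3). AE9a-Ddit4-/- libraries 1 to 3 held 2081, 3258 and 3791 CPM, with a mean of 3043 ± 875 (SD, n = 3). Library 1 was the lowest of its group and library 3 the highest, and both sums stayed far under those of the wild type. The median log2 ratio to the wild-type mean was -1.78, -1.0 and -0.72 in AE9a-Ddit4-/- libraries 1 to 3, whereas the genes above 4 log2 CPM gave nearly equal medians of -0.18, -0.15 and -0.17. Library 1 was the lowest of the AE9a-Ddit4-/- group in 50 of the 55 members (90.9%, against 39.7% of the genes above 4 log2 CPM), and library 3 was the highest in 44 (80.0%, against 28.9%). The ratio of the highest to the lowest library had a median of 2.08 in AE9a-Ddit4-/- and 1.25 in AE9a-Ddit4+/+, and it was wider in AE9a-Ddit4-/- for 53 of the 55 members (47.8% of the genes above 4 log2 CPM). Without AE9a-Ddit4-/- library 1 the median log2 fold change of the members was -0.83 and 24 were lower, while lower genes over all tested fell from 1975 to 1157. Without library 3 it was -1.36 and 29 were lower.

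**Figure D4:**
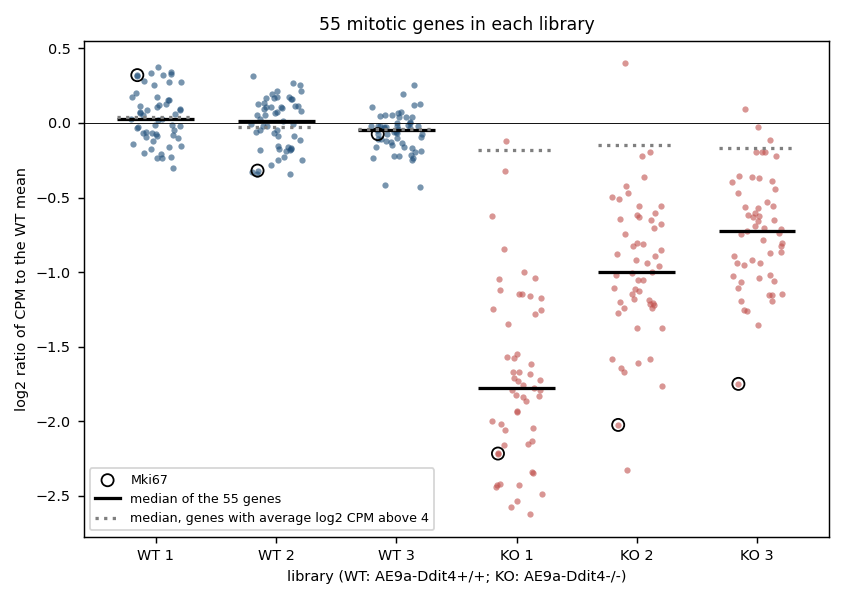
Log2 ratio of the CPM of each of the 55 members (points) to its AE9a-Ddit4+/+ mean, by library, with black lines at the median of the members, dotted lines at the median of genes above 4 log2 CPM, and Mki67 circled. The medians of the members lie at -1.78, -1.0 and -0.72 in the AE9a-Ddit4-/- libraries, and the dotted lines stay between -0.18 and -0.15.

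Other genes of mitosis and DNA replication were read from lists chosen by function. Of 142 such genes, all tested, 56 were lower and none was higher by edgeR, with a median log2 fold change of -0.79. DESeq2 called 3 higher. At an unadjusted p below 0.05 in edgeR, 77 were lower and 3 higher, against 17.4% and 25.0% of all genes tested. The 56 lower genes became 21 and 28 without AE9a-Ddit4+/+ libraries 1 and 3, and 35 and 37 without AE9a-Ddit4-/- libraries 1 and 2. Within kinetochores, 5 of 12 genes of the Mis12, RZZ and Ska complexes and 4 of 15 of the inner centromere network (CCAN) were lower. In the condensin and cohesin list 6 of 15 were lower, in the anaphase-promoting complex 4 of 15, and among other spindle, centrosome and mitotic exit genes 16 of 30. Of the MuvB, DREAM and E2F regulators, 6 of 20 were lower. DNA replication genes, which are expressed earlier in the cycle, were lower in 15 of 35 cases with a median log2 fold change of -1.05, equal to that of the spindle and kinetochore genes. In the 107 genes without replication the median was -0.67.

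The lowest log2 fold changes past the threshold in these lists were those of Rrm2, Cdc6 and Kntc1. Rrm2, a subunit of ribonucleotide reductase, was at 221, 84.3 and 208 CPM against 15, 20.7 and 44.0 CPM (log2 fold change -2.69, standard error 0.52, adjusted p by edgeR = 0.00800). Cdc6, which loads the replicative helicase, was at 147, 54.9 and 156 CPM against 6.83, 25.1 and 42.0 CPM (log2 fold change -2.28, standard error 0.67, adjusted p by edgeR = 0.0375). Kntc1, the Rod subunit of the RZZ complex, was at 88.0, 44.6 and 76.0 CPM against 8.21, 11.9 and 26.8 CPM (log2 fold change -2.15, standard error 0.48, adjusted p by edgeR = 0.0140). In all 3 the second wild-type library was the lowest of its group and still above every AE9a-Ddit4-/- library. At the other end of those that passed were Smc3 of cohesin (-0.62), Nfyb of NF-Y (-0.67) and Rfc2 of the clamp loader (-0.70).

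The libraries also differed in the genes of other blood cells, and the part of these differences in the results above was not tested. Erythroid markers were lower in AE9a-Ddit4-/- in 15 of 18 cases, with sums of 8516 to 17336 CPM in AE9a-Ddit4+/+ and 661 to 1216 CPM in AE9a-Ddit4-/-. Neutrophil markers were lower in 6 of 16 cases (sums of 7922 to 13161 against 1995 to 5699 CPM). Markers of immature blasts were higher in 6 of 9 cases, with sums of 429 to 642 CPM in AE9a-Ddit4+/+ and 1747 to 2213 CPM in AE9a-Ddit4-/-. These counts and sums include Ptprc, a gene of leukocytes in general, at 60.7 to 170 against 453 to 667 CPM. Kit, a defining marker of the starting cells, was at only 14.6 to 31.6 CPM in AE9a-Ddit4+/+ and at 304 to 509 CPM in AE9a-Ddit4-/-, and Cd34 was at 2.26 to 9.83 against 493 to 558 CPM. Megakaryocyte and platelet markers were higher in 8 of 12 tested and lower in 1 (191 to 387 against 2556 to 3185 CPM). Monocyte and macrophage markers were higher in 4 of 11 (244 to 533 against 294 to 681 CPM). Summed B cell markers were at 1.05 to 5.25 against 69.5 to 136 CPM, with 7 of 8 tested genes higher and Ms4a1 and Vpreb3 at 0 in AE9a-Ddit4+/+. T and NK cell markers were at 11 to 48.7 against 95.9 to 140 CPM (10 of 11 higher, Ncr1 and Klrb1c at 0 in AE9a-Ddit4+/+), and stromal and endothelial markers at 6.56 to 11.3 against 186 to 215 CPM (5 of 9 higher, Emcn at 0 in AE9a-Ddit4+/+). The endothelial gene Pecam1, at 123 to 144 CPM, made up most of these last sums in AE9a-Ddit4-/-. Of the stromal genes, Cxcl12 passed (means of 0.197 against 2.62 CPM), whereas Col1a1, Col1a2, Col3a1 and Lepr did not and had overlapping groups. Mitochondrially encoded genes took 5.03% to 7.9% of the counts in AE9a-Ddit4+/+ and 11.3% to 16.4% in AE9a-Ddit4-/-. Xist was lower in AE9a-Ddit4-/-, and the 4 Y-linked genes measured were higher, with Kdm5d and Uty at 0 in AE9a-Ddit4+/+, so sex of the cells and genotype cannot be told apart.

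Genes above 4 log2 CPM on chromosomes 1, 15 and 16 were shifted upward in AE9a-Ddit4-/- by a median of 0.44 on the log2 scale relative to all such genes. The 5 members on these chromosomes, Nuf2, Cenpf, Kif14, Racgap1 and Espl1, had a median log2 fold change of -0.73, and 1 of them was lower. The other 50 had a median of -1.07 and 32 were lower. The chromosomes were grouped after these shifts had been seen, and their part in the members' values was not tested.

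Because the use of strand in counting is not stated, reads of genes that overlap a member on the opposite strand cannot be told apart from its own. In GENCODE M21, 17 members share exon bases with another gene, 14 of them with one on the opposite strand, and in 7 the shared part is over 10% of the member's exons. The share was 29.3% for Kif20a with Cdc23, 22.8% for Ube2c with Tnnc2, 15.1% for Kif4 with Pdzd11 and 13.4% for Ncapg with Lcorl. It was 12.7% for Cdc25c with Gm3550, 12.5% for Ccna2 with Exosc9 and 11.1% for Prc1 with Rccd1. In AE9a-Ddit4-/- libraries 1 to 3, Cdc23 was at 41.8, 40.3 and 50.1 CPM and Kif20a at 17.9, 44.4 and 50.4 CPM. Lcorl was not called (log2 fold change 0.46, standard error 0.21, adjusted p by edgeR = 0.144). Neither were Pdzd11 (log2 fold change -0.65, adjusted p by edgeR = 0.213), Gm3550 (-1.61, adjusted p by edgeR = 0.0924) and Rccd1 (0.42, adjusted p by edgeR = 0.531). Exosc9 was itself lower (log2 fold change -0.92, standard error 0.23, adjusted p by edgeR = 0.0213). Tnnc2 was at 1.33 to 3.04 CPM in AE9a-Ddit4+/+ and at 0.666 to 11.3 CPM in AE9a-Ddit4-/-, below Ube2c in every library.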

How the data were processed

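RNA of 6 libraries, 3 per genotype as given by the sample titles, was sequenced by the authors in paired reads of 150 bases. The authors deposited 1 table of raw counts per Ensembl gene. The labels' processing notes name GRCm38 and mm10, and the aligner, the counting tool and the use of strand are not given in the sources used here. The labels give an mRNA kit, whereas a directional kit with rRNA depletion stands in the methods. Of the identifiers, 99.67% matched GENCODE M21, the source of positions and exon lengths.

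Genes passing filterByExpr (18375 of 55421) were scaled by TMM and tested by genotype with edgeR 4.0.16 (quasi-likelihood F-test, R 4.3.3), with Benjamini-Hochberg adjustment over all genes tested and a threshold of 0.05. The SE is the absolute log2 fold change over the square root of F. The edgeR steps were run on simulated counts in which 200 genes were changed by more than any member was in the main fit. That run does not cover changes of the members' size. DESeq2 1.42.0, other scalings and filters, counts divided by 4 and each library left out served as alternatives. Values in every library are given for 9 genes fixed by name, for the member of each role with the lowest adjusted p and that with the highest level per kilobase in AE9a-Ddit4+/+, and for any member higher in AE9a-Ddit4-/-; of the other lists, the 3 lowest and 3 highest log2 fold changes past the threshold are named. The members and lists were chosen with earlier results of these data known. Promoter windows are from RefSeq (GRCm38.p6).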

Additional observations from a re-analysis of the deposited data

How the results depend on the processing

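Across 14 alternative fits, 54 of the 55 members had a negative log2 fold change in each, 14 of the 33 lower members (Ccna2, Ccnb2, Cdc25b, Spc25, Cenpa, Cenpe, Birc5, Incenp, Cdca8, Kif23, Mki67, Ube2c, Ncapg and Mybl2) were called in each, and 12 were called in none (Cdc20, Bub1, Bub1b, Ttk, Knl1, Nuf2, Cenpf, Kif20a, Kif20b, Ect2, Racgap1 and Espl1). Of 770 values of single members, 653 kept their direction and their side of the threshold, 95 lost the call, 20 gained it and 2 reversed, both for Cenpf: -0.086 when AE9a-Ddit4+/+ library 3 was left out, or -0.14 when AE9a-Ddit4-/- library 2 was. At an adjusted p below 0.01, 10 members, 712 of all genes and 14 genes of the other lists were lower, and 1964 of all genes were higher. With at least 10 counts in every library, 2341 genes were higher. Genes of the other lists called higher numbered 1 with DESeq2 size factors and 1 without mitochondrial genes (Nipbl in both), 2 with counts divided by 4 (Nipbl and E2f5), and 3 with DESeq2, or with the minimum of 10 counts (Nipbl, E2f5 and Lin54, named after their values were seen). Leaving out 1 library gave 17 to 29 lower members with median log2 fold changes of -1.36 to -0.83, 1089 to 2078 lower genes in all, 2683 to 3943 higher genes in all, 21 to 53 lower and 0 higher genes of the other lists, and Cenpf values of -0.14 to 0.26. The lower genes in all were 1168 without AE9a-Ddit4+/+ library 1, 1089 without its library 3 and 1157 without AE9a-Ddit4-/- library 1, and the lower genes of the other lists 21, 28 and 35 there and 37 without AE9a-Ddit4-/- library 2. Same-numbered libraries of the groups did not deviate together over all genes tested (correlations of -0.238, -0.281 and -0.0413). With few libraries a group such correlations depend on each other, so a pairing by number was not excluded. A fit with the replicate number as a block called 17 members, 787 genes in all and 19 genes of the other lists lower, and 2177 genes higher. The cause of the other changes was not tested. The number of fragments behind a count is not known; with counts divided by 4, 37 members were lower.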
